A study of Homo sapiens with 33 samples.

Results

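The genes described here are 10 genes of contraction and actin filaments, grouped under the name contractile smooth muscle genes. The name is loose, since MYL7 is best known from heart muscle and CNN2 from non-muscle cells. The 10 genes were chosen by symbol from the 56470 gene symbols of the count table. They are MYL7, MYL9, ACTA2, ACTG2, TAGLN, CNN1, CNN2, TPM1, TPM2 and CALD1, and the group was put together around MYL7 because its rise with cetuximab was the largest in the SCC6 cell line. The comparison of cetuximab with PBS in SCC6 therefore chose the genes and is given as a description, with no test. RNA was sequenced in bulk from SCC1 (UM-SCC-1), SCC6 (UM-SCC-6) and SCC25, 3 established lines of head and neck squamous cell carcinoma (HNSCC), each grown with cetuximab at 100 nM, a therapeutic antibody against EGFR, or with PBS as the untreated control. Each line had 6 PBS libraries, from day 0 to day 5, and 5 cetuximab libraries, 33 libraries in all. There was 1 library for each line, treatment and day, except that in cetuximab-treated SCC6 2 libraries carry the label of day 2 and none that of day 1. These are called 2a and 2b here. The lines did not share a medium, since the labels list hydrocortisone at 0.4 µg/mL for SCC25 and 1 µg/mL for SCC1 and none for SCC6, so line and medium cannot be told apart. Cells received fresh medium with cetuximab or PBS daily. Nothing in the labels ties the libraries to repeated cultures, so the days served as replicates, and p-values measure only the spread between these libraries. Overlap between treatments was looked at for the 10 genes alone. Its share over all genes was not counted, so nothing is read from groups that do not overlap.

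Total counts per library ranged from 28508758 in PBS-treated SCC6 to 80727478 in cetuximab-treated SCC6. The labels name 5 flow cells. In SCC1 all cetuximab libraries and PBS of day 5 shared a flow cell, and the other PBS libraries were on another. In SCC25 all PBS libraries shared a flow cell with cetuximab of days 1 and 2, and in SCC6 cetuximab of days 4 and 5 was alone on its flow cell. A fit of cetuximab against PBS with the flow cell as a covariate was made for SCC1 and SCC25, and its value is given where it ended the call of a gene named here. Within a line, only libraries on a flow cell with both treatments set the difference in such a fit. These were cetuximab of days 1 and 2 with all PBS libraries in SCC25, and all cetuximab libraries with PBS of day 5 in SCC1. In SCC6 they were cetuximab 2a, 2b and day 3 with PBS of days 2 to 5. A change in that fit therefore cannot be told apart from a change of the days compared. Markers of squamous epithelium had a summed level of at least 2180 CPM, the counts scaled to a common library size, in every library. All 9 had a mean of at least 1 CPM in every group. In SCC6 KRT5, KRT14 and DSG3 were low, at means of 2.90, 5.37 and 3.26 CPM with PBS and 12.3, 5.2 and 1.46 CPM with cetuximab. The other markers of this list had higher means there. Markers of muscle were present in part. Of the 5 smooth muscle markers, MYH11 and SMTN had a mean of at least 1 CPM in every group and DES, which encodes the intermediate filament desmin, in none, while MYOCD passed 1 CPM in cetuximab-treated SCC6 alone and LMOD1 in cetuximab-treated SCC6 and SCC25. Of the 5 cardiac markers, MYH6, MYH7 and TNNI3 stayed under a mean of 1 CPM in every group, TNNT2 reached 1.05 CPM in cetuximab-treated SCC6, and NKX2-5 was under 1 CPM in cetuximab-treated SCC1 alone and had its highest mean, 11.7 CPM, in cetuximab-treated SCC6.

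Contraction in smooth muscle is driven by myosin II, whose regulatory light chain must be phosphorylated before the motor can pull on actin. Tropomyosin, caldesmon, calponin and transgelin bind the actin filament and stabilise it or restrain the motor. Many of these genes are known targets of serum response factor (SRF), which binds a CArG box, the letters CC, a run of A or T, and GG, together with cofactors of the myocardin family that respond to the state of cellular actin. Non-muscle and epithelial cells use the same parts in stress fibres.

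MYL7 encodes the atrial regulatory light chain, best known from heart muscle, and lies on chromosome 7, from 44178463 to 44180931 on the minus strand of GRCh37, with 7 exons. MYL9 is its smooth muscle counterpart on chromosome 20. The promoter windows of RefSeq on GRCh38.p14 covered 8 of the genes. In the 250 bases before the start, a CArG box with 6 inner letters of A or T was found on either strand for MYL7, ACTG2 and CNN2, and with 1 inner G or C allowed also for ACTA2 and CALD1. The 8 genes had 13 windows, of which 3 held the strict form and 5 the relaxed form. Of 35116 windows of all genes, 1.16% held the strict form and 7.04% the relaxed form. The motif was not found in the windows of CNN1, TPM1 and TPM2, nor in the other windows of ACTA2 and CALD1. These stretches are shown because the box is the best-known shared element of this gene group, and a match is a description of letters and not of binding. Capitals mark the boxes, each sequence reads 5′ to 3′ on the strand of the gene, and the positions follow on GRCh38.p14.
MYL7, the whole 250 bases before the start, chr7:44141333-44141582, minus strand: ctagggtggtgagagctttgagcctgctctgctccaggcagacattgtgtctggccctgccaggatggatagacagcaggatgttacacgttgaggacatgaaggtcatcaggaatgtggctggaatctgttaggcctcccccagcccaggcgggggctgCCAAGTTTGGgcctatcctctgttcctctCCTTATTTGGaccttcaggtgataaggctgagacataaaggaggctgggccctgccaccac
ACTA2, chr10:88952820-88952909, minus strand: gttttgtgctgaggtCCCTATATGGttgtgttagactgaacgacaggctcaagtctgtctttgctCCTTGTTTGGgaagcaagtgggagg
ACTG2, chr2:73892883-73892959, plus strand: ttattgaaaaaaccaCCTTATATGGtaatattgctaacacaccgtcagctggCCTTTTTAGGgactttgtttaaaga
CNN2, chr19:1026504-1026543, plus strand: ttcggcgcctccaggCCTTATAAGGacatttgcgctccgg
CALD1, chr7:134711458-134711497, plus strand: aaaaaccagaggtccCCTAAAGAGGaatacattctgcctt
The strict box of MYL7 began 61 bases before the start, and the second MYL7 box, which needs the relaxed form, began 90 bases before it. ACTG2 held a pair of strict boxes and ACTA2 a pair that both need the relaxed form.

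In SCC6 all 10 genes were higher with cetuximab, and MYL7 led them. With PBS, MYL7 was at 0.0844, 0.0312, 0.0693, 0.155, 0.159 and 0 CPM on days 0 to 5, which is 0 to 6 counts per library. With cetuximab it was at 6.43 CPM in library 2a, 1.92 in 2b, 18.5 on day 3, 29.4 on day 4 and 59.4 on day 5. Every cetuximab library was above every PBS library, and the level was highest on day 5. In bulk RNA, a change in the number of cells with the transcript and a change in its amount per cell cannot be told apart. The log2 fold change over days 1 to 5 was 8.02 (SE 1.05), and its size depends on the few PBS counts. With the flow cell as a covariate it was 6.43, a value that leaves out cetuximab of days 4 and 5, alone on their flow cell.

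The other light chain, MYL9, was at 5.58 to 8.08 CPM in the PBS libraries of days 1 to 5 and at 72.9, 42.3, 114, 148 and 191 CPM in cetuximab libraries 2a, 2b and days 3 to 5. TAGLN, which encodes the actin binder transgelin, was at 14.2 to 17.7 CPM with PBS and at 193, 93.0, 303, 349 and 439 CPM with cetuximab. These were log2 fold changes of 4.08 (SE 0.36) for MYL9 and 4.11 (SE 0.35) for TAGLN. In both genes 2b was the lowest cetuximab library and day 5 the highest.

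Among the actins in SCC6, the enteric smooth muscle actin ACTG2 went from 0.132 to 0.542 CPM with PBS to 3.12, 1.45, 9.94, 8.36 and 19.2 CPM, a log2 fold change of 4.73 (SE 0.68). The vascular smooth muscle actin ACTA2 stayed low, at 0.151 to 0.914 CPM with PBS and 0.632, 0.821, 0.966, 1.69 and 2.99 CPM with cetuximab, and its groups overlapped (log2 fold change 1.71, SE 0.51, or 0.93 when flow cell was a covariate). The value of 0.93 leaves out cetuximab of days 4 and 5, alone on their flow cell. ACTA2, ACTG2, ACTA1 and ACTC1 encode near-identical proteins and have similar coding sequences, so the split of reads between them rests on the authors' quantification.

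The remaining actin binders followed in SCC6. CNN1, the smooth muscle calponin, was at 0.0857 to 0.233 CPM with PBS and 0.363 to 3.44 CPM with cetuximab (log2 fold change 3.38, SE 0.54). TPM1, the abundant tropomyosin gene of the group, was at 94.4 to 137 CPM and at 813, 560, 1129, 980 and 1143 CPM (2.89, SE 0.19). CALD1, which encodes caldesmon, was at 139 to 183 and 509 to 893 CPM (2.14, SE 0.16). CNN2, the calponin of non-muscle cells, was between 98 and 191 CPM with PBS and 225 to 369 CPM (1.23, SE 0.20). TPM2 remained low, at 2.93 to 6.61 and 6.45 to 9.31 CPM, with overlapping groups (0.89, SE 0.22). Of all 17387 genes tested in SCC6, 30.1% passed the threshold (15.6% higher, 14.6% lower), and nothing is read from the members' count of 10 since this contrast chose them.

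**Figure D1:**
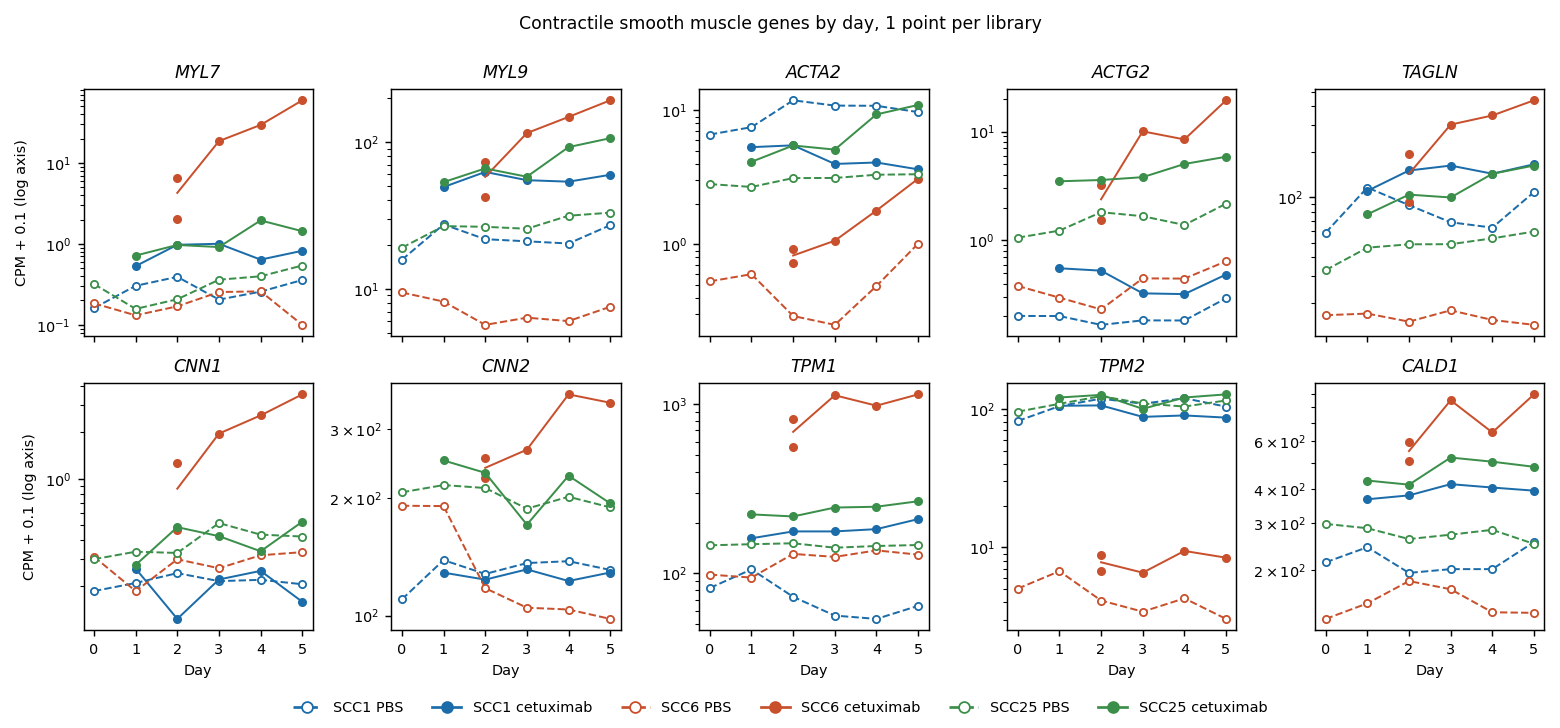
CPM + 0.1 on a log axis against the day for each of the 10 genes, 1 point per library, with open points and dashed lines for PBS, filled points and solid lines for cetuximab, and the line passing through the mean of 2a and 2b at day 2 in SCC6. The cetuximab libraries of SCC6 rise to 59.4 CPM of MYL7 on day 5, and ACTA2 in SCC1 is the one case where every cetuximab library lies below every PBS library.

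In SCC25, 7 of the 10 rose with cetuximab and none fell. Of the 19101 genes tested, 18.3% passed the threshold in that comparison (8.8% higher, 9.5% lower). The group was built around SCC6, but its genes were chosen with earlier results of these data known. SCC25 is therefore not an independent check. The threshold was a Benjamini-Hochberg adjusted p of 0.05 from edgeR's quasi-likelihood F test, 5 libraries against 5. The median log2 fold change of the members was 0.99, beside 0.01 over all genes tested. The flow cell covariate left 5 of the 10 called, and 7.42% of all genes.

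MYL7 in SCC25 was at 0.220, 0.0574, 0.107, 0.261, 0.298 and 0.441 CPM on days 0 to 5 with PBS and at 0.618, 0.871, 0.815, 1.85 and 1.34 CPM on days 1 to 5 with cetuximab. The groups did not overlap, and the log2 fold change was 2.23 (SE 0.44, edgeR adjusted p = 0.0052). The call was lost with the flow cell as a covariate, where the log2 fold change was 1.68 and the edgeR adjusted p = 0.07. Depth limits this gene, which had 3 to 22 counts per PBS library and 29 to 86 per cetuximab library.

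MYL9 in SCC25 was at 18.9, 26.6, 26.3, 25.5, 31.3 and 32.8 CPM with PBS and 53.1, 65.8, 57.7, 91.9 and 106 CPM with cetuximab (log2 fold change 1.39, SE 0.18, edgeR adjusted p = 0.00044). TAGLN was at 32.8, 46.3, 48.7, 48.8, 53.4 and 59.2 CPM and at 77.0, 104, 99.7, 143 and 162 CPM (1.19, SE 0.17, edgeR adjusted p = 0.00091). Both genes were higher in each cetuximab library than in any PBS library, with the highest levels on day 5.

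Both smooth muscle actins rose in SCC25. ACTA2 was at 2.72, 2.58, 3.03, 3.03, 3.21 and 3.24 CPM with PBS and 4.03, 5.37, 5.00, 9.24 and 10.9 CPM with cetuximab (log2 fold change 1.19, SE 0.25, edgeR adjusted p = 0.0067). With the flow cell as a covariate this call was lost (0.64, edgeR adjusted p = 0.13), in a fit whose difference rests on cetuximab of days 1 and 2. ACTG2 was at 0.958 to 2.07 CPM with PBS and 3.39 to 5.76 CPM with cetuximab (1.45, SE 0.20, edgeR adjusted p = 0.00063).

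TPM1 in SCC25 moved least among the genes that rose and with little spread, from 142 to 151 CPM with PBS to 217 to 267 CPM with cetuximab (log2 fold change 0.70, SE 0.06, edgeR adjusted p = 3.2e-05). CALD1 went from 251 to 297 CPM to 415 to 522 CPM (0.79, SE 0.07, edgeR adjusted p = 4.4e-05). The calponins CNN1 and CNN2 and the tropomyosin TPM2 did not pass the test in SCC25, with log2 fold changes of 0.03, 0.09 and 0.08 and overlapping groups.

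In SCC1, 8 of the genes could be tested, since ACTG2 and CNN1 were below the filter on low counts, and 5 of them rose and 2 fell. Here 44.8% of all 17984 genes tested passed the threshold (22.7% higher, 22.1% lower), so that a call by itself is common in this line. The median log2 fold change of the tested members was 0.79, beside 0.02 over all genes tested. Adding the flow cell to the fit left 4 of the 8 called, and 23.3% of all genes.

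MYL7 in SCC1 was at 0.0613, 0.204, 0.292, 0.105, 0.157 and 0.258 CPM on days 0 to 5 with PBS and 0.431, 0.876, 0.904, 0.540 and 0.723 CPM on days 1 to 5 with cetuximab. All cetuximab libraries were above all PBS libraries (log2 fold change 1.77, SE 0.30, edgeR adjusted p = 0.00045). The flow cell covariate ended this call (1.43, edgeR adjusted p = 0.078).

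MYL9 in SCC1 was at 15.6, 27.3, 21.6, 20.9, 20.2 and 27.0 CPM with PBS and 49.1, 62.3, 54.7, 53.4 and 59.5 CPM with cetuximab (log2 fold change 1.26, SE 0.10, edgeR adjusted p = 2.1e-06). TPM1 was at 82.0, 106, 72.7, 56.3, 53.8 and 64.3 CPM and at 161, 177, 177, 183 and 209 CPM (1.37, SE 0.16, edgeR adjusted p = 3.1e-05). CALD1 was at 196 to 255 CPM with PBS and 366 to 416 CPM with cetuximab (edgeR adjusted p = 6.1e-06). In these 3 genes the groups did not overlap, and the share of all genes without overlap was not counted.

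TAGLN in SCC1 overlapped between treatments, with 58.2, 116, 88.7, 68.2, 62.9 and 108 CPM in PBS and 110, 151, 162, 143 and 166 CPM in cetuximab libraries. Its log2 fold change of 0.73 (SE 0.17, edgeR adjusted p = 0.0037) was not called with the flow cell as a covariate (0.45, edgeR adjusted p = 0.30). TPM2 was lower by a small margin, at 81.8 to 119 CPM with PBS and 86.5 to 106 CPM with cetuximab (-0.22, SE 0.07, edgeR adjusted p = 0.028), and this call was lost with the flow cell as a covariate (-0.12, edgeR adjusted p = 0.54), with library totals in place of TMM factors (-0.16, edgeR adjusted p = 0.11), with PBS of day 0 added (-0.16, edgeR adjusted p = 0.19) and without PBS of day 2 or 4 or cetuximab of day 3, 4 or 5. CNN2 did not pass the test (-0.07). ACTG2 was at 0.0674 to 0.194 CPM with PBS and 0.221 to 0.454 CPM with cetuximab, without overlap but below the filter.

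ACTA2 fell in SCC1. It was at 6.51, 7.40, 11.8, 10.8, 10.7 and 9.61 CPM on days 0 to 5 with PBS and at 5.22, 5.39, 3.89, 3.99 and 3.53 CPM on days 1 to 5 with cetuximab. Every cetuximab library was below every PBS library, with a log2 fold change of -1.18 (SE 0.15, edgeR adjusted p = 4.4e-05), and the call held with the flow cell as a covariate (-1.11, edgeR adjusted p = 0.0073).

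**Figure D2:**
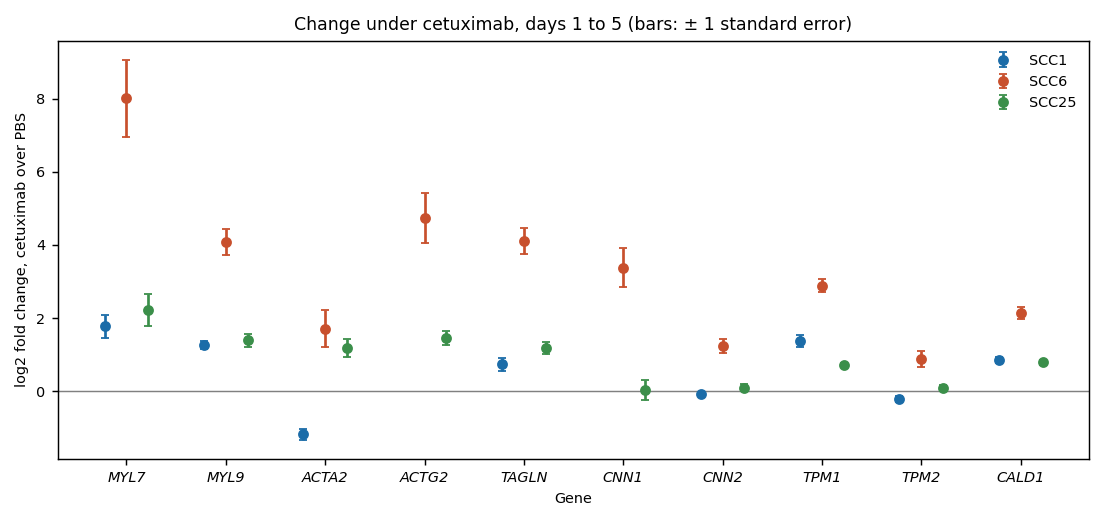
Log2 fold change of cetuximab over PBS on days 1 to 5 (y axis) for each gene (x axis) in SCC1, SCC6 and SCC25, with bars of 1 standard error and no point where a gene was below the filter. MYL7 in SCC6 is at 8.02, and ACTA2 is at -1.18 in SCC1 and at 1.19 in SCC25.

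The response of SCC1 was tested against that of SCC25 by fitting the 30 libraries of days 1 to 5 jointly, where 8.52% of 21414 genes differed (4.17% higher and 4.35% lower in SCC1). Among the 10 genes ACTA2 alone passed, with a log2 difference of SCC1 minus SCC25 of -2.38 (SE 0.44, edgeR adjusted p = 0.00039), and -1.76 when flow cell was added to the fit (edgeR adjusted p = 0.023). TPM1 rose more in SCC1, by a difference of 0.66 (95% interval 0.23 to 1.08) that missed the threshold with an edgeR adjusted p = 0.06. With the day as a replicate block the difference for TPM1 was 0.70 and was called (edgeR adjusted p = 0.033), and it was called without PBS of day 1 in SCC1 (0.85, edgeR adjusted p = 0.0037). For MYL7 the difference was -0.48 with an interval from -2.47 to 1.52, and for MYL9 it was -0.14 with an interval from -0.80 to 0.52. The joint fit shares its estimate of the spread with the SCC6 libraries. Differences in response against SCC6 were not tested, since SCC6 chose the genes.

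**Figure D3:**
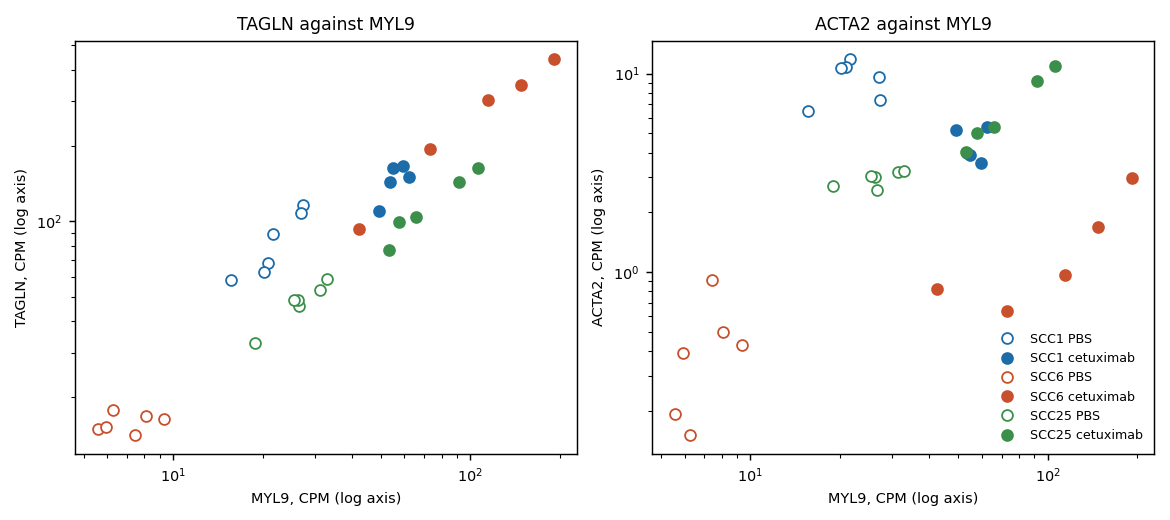
TAGLN (left) and ACTA2 (right) against MYL9 in the 33 libraries, in CPM on log axes, with open points for PBS and filled points for cetuximab. The cetuximab libraries of SCC1 lie to the right of PBS in both panels, above or level with PBS for TAGLN and below PBS for ACTA2, where they range from 3.53 to 5.39 CPM.

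Without drug the lines already differed in these genes. SCC6 had the lowest levels of the 3 lines for MYL9, ACTA2, TAGLN, TPM2 and CALD1. TPM2 had a mean of 4.33 CPM ± 1.32 (SD, n = 6) in SCC6, against 106 ± 13.7 in SCC1 and 110 ± 9.62 in SCC25, and ACTA2 had 0.429 ± 0.274 in SCC6, 9.46 ± 2.08 in SCC1 and 2.97 ± 0.264 in SCC25. The PBS libraries of SCC6 were part of the contrast that chose the genes. Comparisons with them are therefore descriptions, with no p-value given. Against SCC25, SCC6 had negative log2 differences in all 8 genes past the filter, from -0.30 for TPM1 to -4.65 for TPM2. Of 19746 genes, 72.1% were called in that comparison (35.1% higher, 37% lower). The TPM1 difference was -0.42 with library totals in place of TMM factors. It ranged from -0.331 to -0.233 when single libraries were left out. SCC1 against SCC6 had positive log2 differences for MYL9, ACTA2, TAGLN, TPM2 and CALD1, and negative ones for ACTG2, TPM1 and CNN2 (-0.05). Of all genes 69.1% were called there (34.8% higher and 34.4% lower). TPM2 was at 4.60 (SE 0.16) and ACTA2 at 4.43 (SE 0.26), while ACTG2 (-1.5) and TPM1 (-0.73) were lower in SCC1. SCC1 against SCC25 gave 2 higher, ACTA2 (1.67) and TAGLN (0.79), and 4 lower, with ACTG2 at -3.73 (SE 0.31, edgeR adjusted p = 1e-09), where 69% of all genes were called (33.8% higher, 35.2% lower). MYL9 and TPM2 did not pass the test between SCC1 and SCC25, and MYL9 was called lower in SCC1 on days 1 to 5 only (-0.29, edgeR adjusted p = 0.039) and without SCC25 of day 0 (-0.38, edgeR adjusted p = 0.029). MYL7 and CNN1 were below the filter in PBS libraries, with MYL7 means of 0.180 ± 0.0888 in SCC1, 0.231 ± 0.138 in SCC25 and 0.0831 ± 0.0644 CPM in SCC6, values closer than their spread in SCC1 and SCC25. The PBS libraries of the lines were on different flow cells except for SCC1 day 5 and SCC6 days 0 and 1, so line and flow cell cannot be told apart here.

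Change with culture time was fitted as a slope over days 0 to 5 without drug. In PBS-treated SCC25, MYL9 rose by 0.13 (SE 0.03, edgeR adjusted p = 0.006) and TAGLN by 0.14 (SE 0.03, edgeR adjusted p = 0.0028) per day on the log2 scale, 2 of 8 genes tested, where 13.4% of all genes were called (8.7% higher, 4.72% lower). Without the day 0 library the MYL9 slope was 0.09 and was not called (edgeR adjusted p = 0.11), and the ACTG2 slope was called without day 2 (0.19, edgeR adjusted p = 0.047) or day 4 (0.21, edgeR adjusted p = 0.036). In PBS-treated SCC6, CNN2 fell by 0.23 per day (SE 0.04, edgeR adjusted p = 0.0032), TPM2 fell by 0.19 (SE 0.07, edgeR adjusted p = 0.05 after rounding) and TPM1 rose by 0.09 (SE 0.03, edgeR adjusted p = 0.043), 3 of 6 tested, where 38.3% of all genes were called (16.5% higher, 21.9% lower). The TPM1 and TPM2 slopes in SCC6 were each lost when the library of day 0, 1, 3, 4 or 5 was left out, and that of CNN2 was not. The SCC6 PBS libraries of days 0 and 1 were on another flow cell than those of days 2 to 5. Day and flow cell can therefore not be told apart in the SCC6 slopes. In PBS-treated SCC1 none of 7 tested genes passed edgeR's test (3.22% of all genes called, 2.15% higher and 1.07% lower), 1 had an unadjusted p under 0.05 (TPM1, -0.15 per day), and DESeq2 called 1. Without the day 5 library the TPM1 slope was -0.23 and was called (edgeR adjusted p = 0.035).

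Whether the gap between treatments widened with the days was tested as the product of treatment and day. In SCC1 edgeR called 0 of 8 genes (0.617% of all genes called, 0.439% higher and 0.178% lower), 2 had an unadjusted p under 0.05 and DESeq2 called 1. In SCC25 edgeR called 0 of 10 genes (0% of all genes, with 1180 of 19101 at an unadjusted p under 0.05 and 30 called by DESeq2), 4 of the members had an unadjusted p under 0.05 and DESeq2 called 0. The members under an unadjusted p of 0.05 were TPM1 and ACTA2 in SCC1, at 0.28 and -0.20 per day with an edgeR adjusted p = 0.14 and 0.37. In SCC25 they were ACTA2 and TAGLN, at 0.29 and 0.17 per day with an edgeR adjusted p = 0.61 each, and MYL9 and TPM1, at 0.16 and 0.075 per day with an edgeR adjusted p = 0.78 each. Without PBS of day 5 the TPM1 value in SCC1 was 0.41 (edgeR adjusted p = 0.0031), and without cetuximab of day 3 ACTA2 and TAGLN were called in SCC25 (edgeR adjusted p = 0.034 and 0.032). Over all genes 297 were called in the former fit and 181 in the latter. Against PBS of the same day, ACTA2 in SCC25 had log2 ratios of 0.62, 0.81, 0.70, 1.5 and 1.72 on days 1 to 5.

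The other regulatory light chains place MYL7 and MYL9 on a common scale. Levels per kilobase of the GENCODE canonical transcript were summed over MYL7, MYL9 and the non-muscle light chains MYL12A and MYL12B, the most abundant of the 4 in every group. In SCC6, MYL7 went from 0.0284% of that sum with PBS to 6.07% with cetuximab, and MYL9 from 0.503% to 6.55%. In SCC25 MYL7 went from 0.0781% to 0.302% and in SCC1 from 0.0457% to 0.197%. These shares depend on the transcript length taken for each gene, which was 612 bases for MYL7 and 2786 for MYL9.

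Genes of myosin and its regulation had a median log2 fold change of -0.12 in SCC1 and 0.13 in SCC25, beside 0.79 and 0.99 for the contractile genes, and the difference between the lists was not tested. Of 17 listed, SCC25 had 4 higher and none lower of 17 tested, beside 18.3% of all genes called, among them MYLK, the kinase that phosphorylates the light chain (log2 fold change 0.64, edgeR adjusted p = 0.001), the essential light chain MYL6 (0.44, edgeR adjusted p = 0.0011) and MYL12A (0.38, edgeR adjusted p = 0.0036). SCC1 had 3 higher and 7 lower of 16 tested, beside 44.8% of all genes called. When flow cell was a covariate 3 were called in SCC25, beside 7.42% of all genes, and 7 in SCC1, beside 23.3%. The genes named here as higher or lower kept their calls. MYL6 (0.31) and the heavy chain MYH14 (1.11) were higher in SCC1, and MYL12A (-0.36), MYL12B (-0.34) and the heavy chain MYH10 (-0.29) were lower. MYLK (0.17), MYH9 (-0.12) and MYH11 (0.04), the smooth muscle heavy chain, did not pass the test in SCC1. In SCC6, as a description, MYLK had a log2 fold change of 1.91, MYH9 of 1.16 and MYH11 of 0.08.

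Of 23 other actins, actin binders and SRF cofactors in the table, SCC1 had 5 higher and 11 lower of 21 tested, where 44.8% of all genes were called, and SCC25 had 4 higher and 2 lower of 20, where 18.3% were. When flow cell was a covariate 9 were called in SCC1, beside 23.3% of all genes, and 4 in SCC25, beside 7.42%. Lower in SCC1 were the cytoplasmic actins ACTB (-0.57) and ACTG1 (-0.23), the calponin CNN3 (-0.74), the tropomyosins TPM3 (-0.56) and TPM4 (-0.45), smoothelin, SMTN (-2.53), and TAGLN3 (-3.57). The ACTG1 call was lost with the flow cell as a covariate (-0.21, edgeR adjusted p = 0.12). TAGLN3 (-1.68) and SMTN (-0.51) were lower in SCC25 as well, the latter not with the flow cell as a covariate (-0.24, edgeR adjusted p = 0.39). LMOD1, the leiomodin of smooth muscle, rose in both lines, by 1.95 in SCC25 (edgeR adjusted p = 0.0003) and 1.22 in SCC1 (edgeR adjusted p = 0.041), from means under 1 CPM with PBS. SYNPO2 was higher by 1.57 in SCC25 and by 0.96 in SCC1. TPM4 was higher by 0.28 in SCC25, and the cardiac actin ACTC1 was higher by 2.60 in SCC1, at a mean of 0.990 CPM. All 3 higher calls named in SCC1 were lost with the flow cell as a covariate, where LMOD1 was at 0.02 (edgeR adjusted p = 0.99), SYNPO2 at 0.65 (edgeR adjusted p = 0.16) and ACTC1 at 2.70 (edgeR adjusted p = 0.10), while the higher calls of LMOD1, SYNPO2 and TPM4 in SCC25 were kept. SRF itself did not pass the test, with log2 fold changes of 0.09 in SCC1 and 0.05 in SCC25, and TAGLN2 (0.06 and -0.07) did not either.

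MYOCD, which encodes the SRF cofactor myocardin, was at 0.0281, 0.0312, 0.104, 0.116, 0.153 and 0.513 CPM on days 0 to 5 in PBS-treated SCC6 and at 5.31, 2.27, 9.97, 12.4 and 16.7 CPM in 2a, 2b and days 3 to 5 with cetuximab. Its order over the cetuximab libraries was that of MYL7, and also that of MYL9, TAGLN and CNN1. In SCC1 MYOCD had no count in any library, and in SCC25 its mean was 0.0394 CPM with PBS and 0.0235 CPM with cetuximab. The part of MYOCD in the change of MYL7 was not tested in any line. In SCC6 the cofactor MKL1 had a log2 fold change of 1.36 and TGFB1I1 of 2.13, again as a description, while in SCC1 they were at 0.41 and -0.73 and in SCC25 at 0.02 and 0.17.

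Of 16 cardiac sarcomere and heart genes, listed because MYL7 is best known from the atrium, 6 passed the filter in each line. SCC1 had 4 higher and 1 lower, beside 44.8% of all genes called, with TNNC1 (2.18), TNNT2 (1.95) and NPPB (1.59) among the higher, all at means of at most 1.22 CPM with cetuximab. With the flow cell as a covariate TNNC1 kept its call (2.51, edgeR adjusted p = 0.026), while TNNT2 (1.64, edgeR adjusted p = 0.23) and NPPB (0.21, edgeR adjusted p = 0.85) did not. SCC25 had 2 higher, beside 18.3% of all genes called, and 1 when flow cell was a covariate, beside 7.42% of all genes. MYL4, the atrial essential light chain that partners MYL7 in the heart, had means of 0.0284 to 0.0721 CPM in all 6 groups. In SCC6 NPPB, which encodes a natriuretic peptide, was at 0 to 0.159 CPM with PBS and at 1.63, 0.315, 4.76, 4.00 and 7.59 CPM with cetuximab. RYR2, the calcium release channel of heart muscle, went the other way there, from a mean of 9.61 CPM with PBS to 1.83 CPM with cetuximab.

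**Figure D4:**
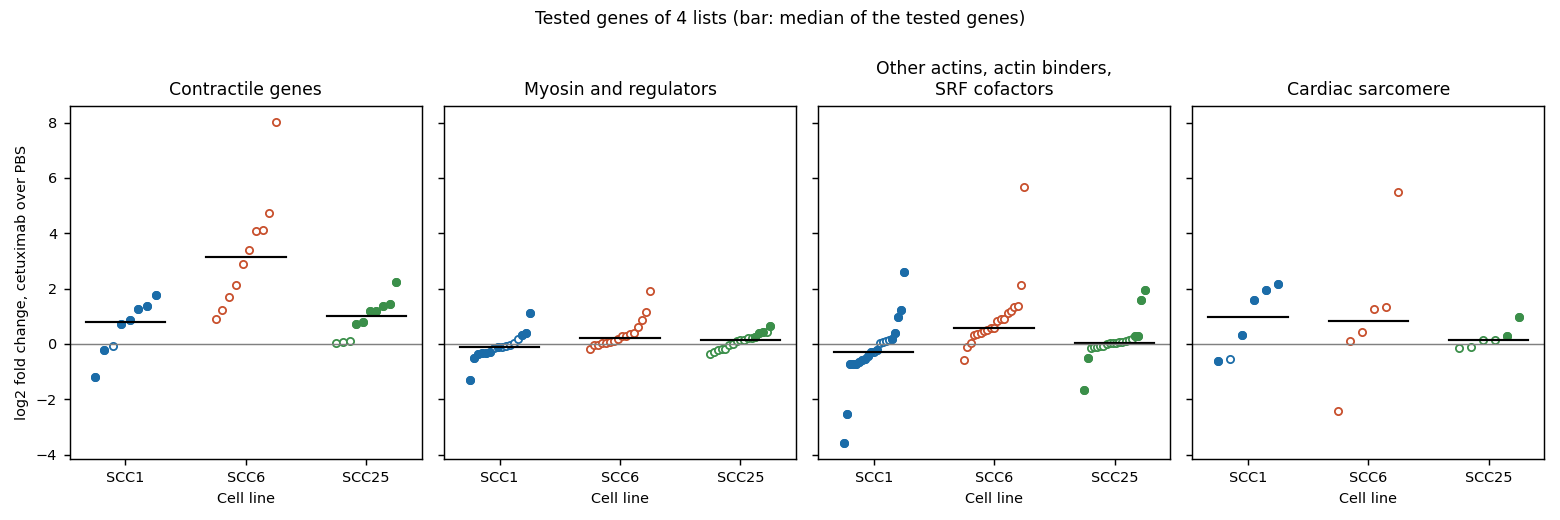
Log2 fold change of cetuximab over PBS (y axis) for the tested genes of 4 lists in each line, with filled points for genes that passed the threshold in SCC1 and SCC25, open points for those that did not, all SCC6 points open because no test is given there, and a bar at the median. The median of the contractile genes is 0.79 in SCC1, 3.13 in SCC6 and 0.99 in SCC25, and that of the myosin list is -0.12, 0.22 and 0.13.

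Markers of other cell types were counted beside these changes. The summed level of 9 fibroblast markers went from 51.4 to 72.9 CPM in PBS-treated SCC1 to 96.4 to 221 CPM with cetuximab, from 178 to 228 to 292 to 459 CPM in SCC25, and from 3.45 to 6.81 to 10.0 to 116 CPM in SCC6. In SCC1 the sum was made up of the collagens COL1A1 (mean 16.9 CPM with PBS and 55.2 with cetuximab) and COL1A2 (9.04 and 36.4) and of FAP (35.3 and 64.1), and the other 6 markers were under a mean of 1 CPM with either treatment, DCN going from 0.131 to 0.951 CPM. In SCC6 COL1A1 went from 3.00 to 40.0 CPM, COL3A1 from 0.0314 to 5.38 CPM and PDGFRB from 0.0760 to 3.95 CPM, and the other 6 were under a mean of 1 CPM with either treatment. In SCC25 all but PDGFRB had a mean of at least 1 CPM with PBS. The 5 smooth muscle markers summed to 44.6 to 125 CPM with PBS and 17.1 to 21.9 CPM with cetuximab in SCC1, where most of the sum was SMTN. The part of these markers in the changes was not tested.

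By Pearson's correlation of log2(CPM + 0.1) over the 33 libraries, the genes most like MYL7 were LIMS2 (0.947), BMPR2 (0.942), PXDC1 (0.925), RNF217 (0.909) and TPM1 (0.905). Of the members, CALD1 ranked 12, MYL9 45 and TAGLN 58 among 14609 genes, and the pooled coefficients of ACTA2 and TPM2 were 0.02 and -0.18. Within a line these differed in sign, with -0.72 in SCC1, 0.77 in SCC6 and 0.91 in SCC25 for ACTA2 and -0.23, 0.77 and 0.40 for TPM2. Without SCC6 the coefficient of LIMS2 was 0.752 and that of TPM1 0.731 over 22 libraries. These coefficients are descriptions, since libraries share lines, days and flow cells and the SCC6 cetuximab libraries carry much of the range.

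In the RefSeq order of GRCh38.p14, MIR4649, POLD2 and RNA5SP230 lie on one side of MYL7. POLD2, a subunit of DNA polymerase delta, fell by 0.42 in SCC1 (edgeR adjusted p = 0.00071) and by 0.50 in SCC25 (edgeR adjusted p = 0.0039), and its log2 fold change was -0.16 in SCC6. The flow cell covariate ended both calls (-0.29 with an edgeR adjusted p = 0.11 in SCC1 and -0.33 with an edgeR adjusted p = 0.061 in SCC25). MIR4649 and RNA5SP230 had no count in any library of days 1 to 5.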

How the data were processed

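Polyadenylated RNA was sequenced in 33 libraries of SCC1, SCC6 and SCC25. The authors inferred transcript abundance with Salmon (version 0.8.2, with hg19/GRCh37, in the submitters' processing notes) and imported it with tximport, and the values as deposited are estimated counts per gene symbol, not normalised between libraries. The annotation release is not given in the sources used here. Of all values 63.2% were whole numbers.

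Counts were rounded to whole numbers and fitted with edgeR 4.0.16 under R 4.3.3, with limma 3.58.1 installed, using filterByExpr, TMM factors, the two-sided quasi-likelihood F test and Benjamini-Hochberg adjustment over all genes of the fit, at 0.05. CPM use the TMM factors. DESeq2 1.42.0, DESeq2's size factors, library totals, no filter, day as a block, flow cell as a covariate, other sets of days and leaving out each library were alternatives. The SCC6 fit on days 3 to 5, the fit of SCC1 and SCC25 libraries only and the flow cell covariate for listed genes other than the members were chosen after seeing the data. Groups came from the sample labels. Counting precision is set by each gene's counts, and MYL7 had 0 to 22 per PBS library. Pairing rests on the labelled day. Deviations of the cetuximab and PBS library of a day correlated at 0.03 to 0.17 in SCC1, 0.10 to 0.20 in SCC25 and -0.05 to 0.24 in SCC6.

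The members and lists were chosen with earlier results of these data known. The rule for named genes takes the 10 members, fixed genes of the myosin, actin and SRF and cardiac lists, any list gene called with a log2 fold change of 1 or more in size in SCC1 or SCC25, the 5 genes most like MYL7 with a mean of at least 1 CPM, and 3 neighbours on each side. Some genes this rule takes are not reported here. Other genes named are listed members chosen after their values were seen. MRTFA and MRTFB are in the table as MKL1 and MKL2.

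The fits were tested on simulated counts with 200 changed genes. For the comparison of treatments in SCC1 all were recovered at a log2 change of 2 by both tools. The share of false calls there was 3.4% with edgeR and 9.5% with DESeq2. Genes with low counts, MYL7 in SCC1 among them, were not simulated, and all members tested in SCC1 changed by less than 2. The product of treatment and day in SCC1, over 15943 genes, recovered 86% with edgeR and 78% with DESeq2 at 0.5 per day, and 100% with both at 1 per day. The 78% missed the recovery of over 80% first required of every fit, after which the size of 1 per day was added and the requirement kept for it alone. Gene positions came from GENCODE v44 lifted to GRCh37 and promoter windows from RefSeq. Figures were drawn with matplotlib 3.10.9 in Python 3.11.15.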

Additional observations from a re-analysis of the deposited data

Results flagged for a closer look

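ACTA2 responded in opposite directions in SCC1 and SCC25. The difference between the responses was -2.38 on the log2 scale and passed edgeR's test, and every cetuximab library was below all PBS libraries in SCC1 and above all of them in SCC25. Each of the 10 genes was looked at in each of the 6 groups, which gives 60 cases over the same libraries. In 3 of the 60 cases 1 library lay far from the others by Dixon's criterion. Chance alone gives about 1 of 20 for independent repeats. These libraries are days of a series, and the CNN2 and TPM1 cases share a library, so that rate is a rough guide only. CNN2 was at 191 CPM on day 1 in PBS-treated SCC6, against 98 to 118 CPM on days 2 to 5, and day 0 was at 191 CPM as well. TPM1 was at 94.4 CPM in that same library, against 125 to 137 CPM on days 2 to 5. Both the day 0 and the day 1 library of PBS-treated SCC6 were on another flow cell than days 2 to 5, and the part of the flow cell was not tested. TPM2 was at 100 CPM on day 3 in cetuximab-treated SCC25, against 121 to 127 CPM on the other days.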

How the results depend on the processing

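Of 1592 comparisons of a gene's value with an alternative, 1519 were the same, and of 221 comparisons of a count of members called, 200 stayed within 1.5 times and 21 did not. A gene's value was the same if it kept direction and side of the threshold. For cetuximab against PBS in SCC6 it had to keep direction and move by less than the SD within groups. Single genes of the slope and by-day fits were compared only where edgeR's unadjusted p was under 0.05. With the flow cell as a covariate 4 of the members were called in SCC1, in place of 7, and 5 in SCC25, in place of 7, while the calls over all genes went from 8061 to 4197 of 17984 and from 3496 to 1417 of 19101. Within a line the covariate fit compares fewer libraries than the main design, so flow cell and day cannot be told apart there. The count for SCC1 minus SCC25 was 2 with DESeq2, 2 with the day as a replicate block and 3 in the fit of SCC1 and SCC25 libraries only, TPM1 joining in each and TPM2 (-0.32) in the last, against 1 in the main design. The replicate block changed no other call of a member. DESeq2 called 1 member in the SCC1 PBS slope and 1 in the SCC1 treatment by day, and without the filter on low counts 1 was called in the SCC6 PBS slope and 1 in the SCC1 treatment by day. Leaving out 1 library gave counts of 6 to 7 in SCC1, 7 to 7 in SCC25, 1 to 2 for SCC1 minus SCC25, 0 to 1, 1 to 3 and 1 to 3 for the PBS slopes of SCC1, SCC6 and SCC25, and 0 to 2 for the treatment by day in SCC1 and in SCC25. The count of 2 for SCC1 minus SCC25 arose without SCC1 PBS day 1, SCC6 PBS day 1 or SCC6 cetuximab 2b or day 5.

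Values that changed sign were of genes that did not pass the test. CNN1 in SCC25 was -0.10 when flow cell was a covariate and -0.10 to 0.20 without single libraries. For SCC1 minus SCC25 the flow cell covariate gave -0.32 for ACTG2, 0 for CNN1 and -0.019 for CALD1, and leaving out libraries gave -0.238 to 0.021 for MYL9, -0.005 to 0.10 for CALD1 and -0.49 to 0.008 for CNN1. In PBS libraries CNN2 in SCC1 minus SCC6 was 0.15 with library totals, 0.12 on days 1 to 5 and -0.129 to 0.073 without single libraries, and TPM2 in SCC1 minus SCC25 was 0.03 with library totals and -0.088 to 0.019 without single libraries. CNN1 in SCC6 was 2.49 when flow cell was a covariate, which leaves out cetuximab of days 4 and 5, and CNN2 was 1.66 on days 3 to 5. The causes were not tested. Low counts limit MYL7, CNN1 and ACTG2 most.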
